A study of Sus scrofa with 24 samples.

Results

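Lymphotoxin and the chemokines that organise lymphoid follicles were followed across 4 tissues of the pig by name: LTA, LTB, CXCL13, CXCR5, CCL19, CCL21, CCR7 and TNFSF13B. A probe belonged to a gene when the array's gene name, or the symbol in its description, was that gene's symbol. Of these 8 genes, 7 had a probe, and all 7 passed the filter on dim probes. No probe carried the name CXCR5, so the CXCL13 receptor was not analysed here. The 7 genes had 15 probes of the 60305 on the array, 14 of which passed the filter, and they are 7 of the 10881 named genes that passed. Where a gene had several probes, the one with the highest mean over the 24 arrays was used.

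The study profiled untreated tissue of 6 crossbred pigs, weaned at 28 days and killed at 10 weeks of age on a standard feed given without restriction. Each animal gave a section of jejunum with a Peyer's patch (called Peyer here), a section of spleen, a section of jejunum without Peyer's patches (Jejunum) and a section of liver, 1 array per section and 6 per tissue. All sections were bulk tissue with no sorting of cells, so the Peyer samples hold gut wall as well as follicles. Levels are log2 signals minus the 75th percentile of their own array, so a probe at 0 sits at that percentile. Such levels compare 1 probe between arrays, and do not rank genes against each other.

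Lymphotoxin is made as a soluble trimer of LTA or as a membrane complex of LTA and LTB, which binds the lymphotoxin beta receptor on stromal cells. Stromal cells that receive this signal secrete CXCL13, which draws B cells carrying CXCR5 into follicles, and CCL19 and CCL21, which draw T cells and dendritic cells carrying CCR7 into the T cell zone. TNFSF13B, also called BAFF, is a survival factor for B cells. These roles are known mainly from mice and humans. In the Sscrofa11.1 annotation LTA and LTB flank TNF, and CCL19 and CCL21 are neighbours.

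The probe sequences below show 1 probe each of 5 members. Those of LTA, CCL19, CCL21 and CCR7 are from genes whose probes gave different calls in Peyer against Jejunum, and that of TNFSF13B is from a gene whose probes gave the same one. They are the 60-base oligonucleotides as the array files give them, in lower case with no base marked.
LTA, probe A_72_P441399: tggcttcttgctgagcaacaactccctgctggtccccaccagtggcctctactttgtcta
CCL19, probe A_72_P150086: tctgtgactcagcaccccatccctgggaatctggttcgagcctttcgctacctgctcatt
CCL21, probe A_72_P165806: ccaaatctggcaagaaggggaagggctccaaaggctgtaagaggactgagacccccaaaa
CCR7, probe O9612: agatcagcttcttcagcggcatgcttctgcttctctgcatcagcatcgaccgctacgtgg
TNFSF13B, probe A_72_P674666: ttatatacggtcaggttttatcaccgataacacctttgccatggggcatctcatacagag

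The 75th percentile signal of an array ran from 275.4 to 2261.9 and 60.4% to 75.6% of probes were well above background. Precision is limited by the number of arrays, 6 per tissue. Hepatocyte markers averaged 8.49 to 8.81 on the liver arrays and at most -0.14 elsewhere, and intestinal epithelium markers averaged 4.46 to 6.12 on the intestinal arrays and at most -2.83 elsewhere. In 22 of 24 arrays the most alike other array was of the same tissue, while for animal 71 the Peyer array and the Jejunum array were each other's nearest. The Peyer array of animal 71 stood apart from the other 5. Its B cell markers averaged -1.03 against 1.23 to 1.45 on the other Peyer arrays, its follicular dendritic cell markers -0.95 against 1.55 to 1.91, and its epithelium markers 5.95 against 4.46 to 5.13. Its label was kept, and where leaving it out moved a printed member difference across the test's threshold or by over 1.5 times, the value without it follows. Slides 1 to 3 held Spleen and Liver and slides 4 to 6 held Peyer and Jejunum, so in the other comparisons tissue and slide set cannot be told apart.

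**Figure D1:**
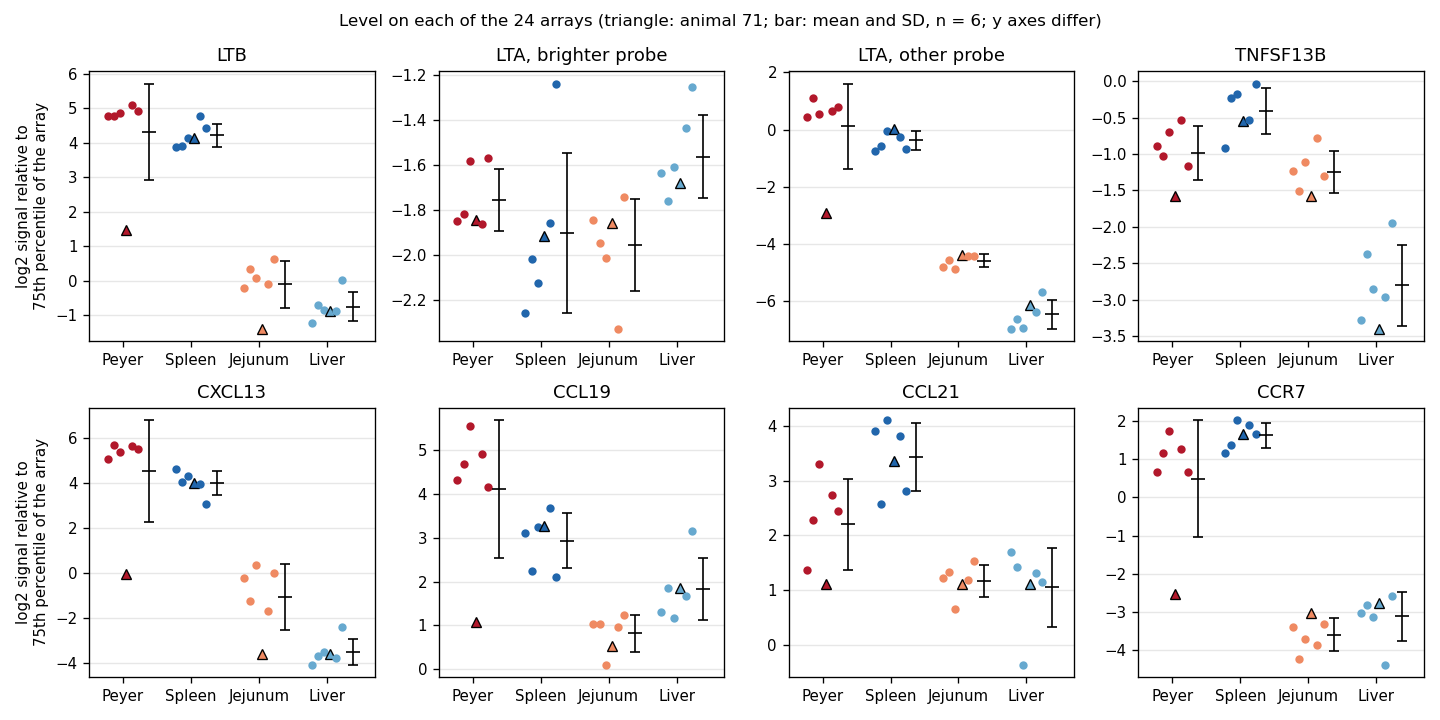
Log2 signal relative to the array's 75th percentile (y) by tissue (x) for the 7 genes and for a second LTA probe. Each point is 1 array, a triangle is animal 71, and the bar gives mean and SD over 6 arrays. The Peyer triangle lies far below the other 5 Peyer arrays for LTB, CXCL13, CCL19, CCR7 and the other LTA probe.

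The first comparison asks what a Peyer's patch adds to the jejunum. LTB, CXCL13, CCL19, CCL21 and CCR7 were higher in Peyer than in Jejunum, and LTA by its brightest probe and TNFSF13B were not called. So 5 of the 7 measured genes were higher and 0 lower, where 13.2% of all named genes were called, 5.96% higher and 7.21% lower. Their median log2 difference was 3.30, against -0.12 over all genes. A gene was called at a Benjamini-Hochberg adjusted p under 0.05 in limma over all 42650 probes and a difference of at least 2-fold. The spread is between animals, and fewer cells of a type cannot be told apart from less RNA per cell in these bulk samples.

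LTB, the membrane anchor of the lymphotoxin complex, stood at 4.77, 4.77, 4.87, 1.47, 5.11 and 4.91 in Peyer of animals 68, 69, 70, 71, 73 and 75. In Jejunum of the same animals it stood at -0.21, 0.33, 0.08, -1.39, -0.11 and 0.62. The groups did not overlap, and animal 71 was lowest in both tissues. Peyer minus Jejunum was 4.43 ± 0.45 (SE, n = 6 each), 21.6-fold, with a limma adjusted p of 6.2e-07, and it was positive in 6 of 6 animals. The dimmer LTB probe, O11711, was also called but gave a smaller difference, 2.70 ± 0.30 (SE), 6.5-fold, with a limma adjusted p of 1.6e-06.

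LTA, the partner of LTB, gave opposite pictures by probe. Its brightest probe, A_72_P441399, whose sequence is printed above, stood at -1.86 to -1.57 in Peyer and -2.33 to -1.74 in Jejunum, and the ranges overlapped. The log2 difference was 0.20 ± 0.14 (SE), with a limma adjusted p of 0.26. The other LTA probe that passed the filter, A_72_P088251, singled out after its values were seen, stood at 0.43, 1.12, 0.56, -2.91, 0.66 and 0.79 in Peyer, in the animal order above. In Jejunum it stood at -4.80, -4.57, -4.89, -4.38, -4.42 and -4.42. The Peyer arrays all lay above the Jejunum arrays, with animal 71 nearest to them. Its log2 difference was 4.69 ± 0.44 (SE), 25.8-fold, with a limma adjusted p of 3e-07, and without the Peyer array of animal 71 the difference of the means was 5.29. Over the 24 arrays the 2 LTA probes correlated at -0.205, whereas the second correlated at 0.978 with an unnamed spot of identical sequence. The files assign both LTA probes to the same transcript record, at start positions 697 and 1423, and the longest run of bases they share is 4. The remaining LTA probe, O5698, was well above background on no array.

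CXCL13, the B cell zone chemokine, stood at 5.10, 5.69, 5.40, -0.06, 5.65 and 5.51 in Peyer. In Jejunum it stood at -0.23, -1.23, 0.35, -3.61, -1.69 and 0.00. The ranges met only through the Peyer array of animal 71, whose own Jejunum array was the lowest of all 6. The log2 difference was 5.61 ± 0.76 (SE), 49.0-fold, with a limma adjusted p of 1.7e-05 and 6 of 6 animals higher in Peyer. Without that Peyer array it was 6.54.

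CCL19, a CCR7 ligand of the T cell zone, stood at 4.33, 4.70, 5.55, 1.07, 4.92 and 4.16 in Peyer. In Jejunum it stood at 1.04, 1.04, 0.10, 0.52, 0.96 and 1.24. The Peyer array of animal 71 again fell within the Jejunum range. The log2 difference was 3.30 ± 0.51 (SE), 9.88-fold, with a limma adjusted p of 6.4e-05, and 3.92 without that array. A second CCL19 probe, A_72_P198737, gave 0.81 ± 0.20 (SE) with a limma adjusted p of 0.0028, in the same direction but under 2-fold.

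CCL21, the other CCR7 ligand, stood at 1.36, 2.28, 3.30, 1.11, 2.73 and 2.45 in Peyer and at 1.22, 1.33, 0.65, 1.12, 1.18 and 1.53 in Jejunum. The groups overlapped, and 5 of 6 animals were higher in Peyer. Peyer exceeded Jejunum by 1.04 ± 0.36 (SE), 2.05-fold, with a limma adjusted p of 0.024. The call was lost without animal 69, 70, 73 or 75 (adjusted p of 0.055, 0.068, 0.093 and 0.054), the difference then running from 0.71 to 1.06. The CCL21 probe printed above, A_72_P165806, gave 0.57 ± 0.40 (SE) with a limma adjusted p of 0.26, not called.

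CCR7, the receptor of both, stood at 0.66, 1.16, 1.74, -2.54, 1.26 and 0.66 in Peyer. In Jejunum it stood at -3.40, -4.23, -3.70, -3.03, -3.86 and -3.32. The groups did not overlap. On the log2 scale Peyer minus Jejunum was 4.08 ± 0.48 (SE), 16.9-fold, with a limma adjusted p of 3.3e-06, and 4.68 without the Peyer array of animal 71. A dimmer CCR7 probe, O9612, gave 0.85 ± 0.37 (SE) with a limma adjusted p of 0.066, but was well above background on only 3 of 6 Jejunum arrays, so its difference is not a measured size.

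TNFSF13B stood at -1.57 to -0.54 in Peyer and -1.57 to -0.78 in Jejunum, with a log2 difference of 0.26 ± 0.22 (SE) and a limma adjusted p of 0.34. The ranges overlapped almost wholly. A second probe, A_72_P178011, gave 0.33 ± 0.31 (SE), also not called.

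Within slides 4, 5 and 6, each with 2 animals, Peyer minus Jejunum was 6.12, 4.30 and 6.42 for CXCL13 and 4.71, 3.83 and 4.75 for LTB. For CCR7 it was 4.72, 2.97 and 4.55, for CCL19 3.48, 3 and 3.44, and for CCL21 0.55, 1.32 and 1.24. Slide 5 held animal 71, and the direction was the same on all 3 slides for these 5 genes.

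**Figure D2:**
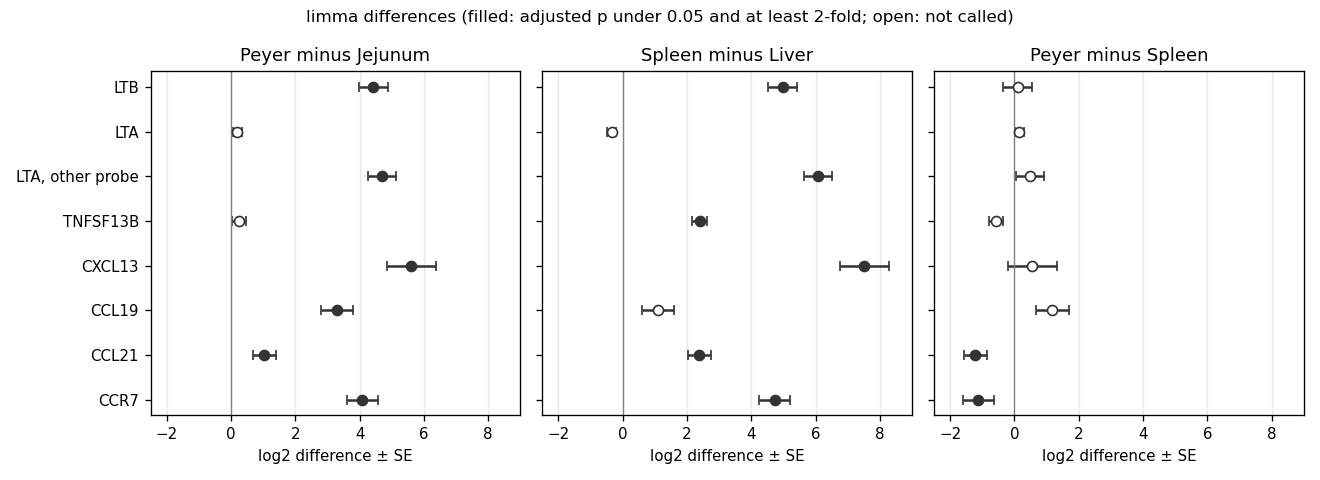
Log2 difference with its SE (x) for each gene and the second LTA probe (y) in Peyer minus Jejunum, Spleen minus Liver and Peyer minus Spleen, from limma on 24 arrays. Filled points were called. The 2 LTA probes lie apart in the first 2 panels, at 0.20 and 4.69 and at -0.34 and 6.07, the last against liver arrays not well above background.

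Spleen against Liver sets an organ with white pulp against a different organ, so it does not show what white pulp adds to a tissue. LTB, CXCL13, CCL21, CCR7 and TNFSF13B were higher in Spleen, 5 of the 7 genes with 0 lower, where 38.8% of all named genes were called, 20.8% higher and 18% lower. The median log2 difference of the 7 was 2.39, against 0.10 over all genes.

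CXCL13 stood at 3.05 to 4.62 in Spleen and -4.08 to -2.39 in Liver, and the difference of 7.51 ± 0.76 (SE), 182-fold, was the largest of the 7 in this comparison. LTB stood at 3.88 to 4.77 in Spleen and -1.24 to 0.02 in Liver, a difference of 4.98 ± 0.45 (SE). CCR7 stood at 1.15 to 2.02 in Spleen and -4.38 to -2.58 in Liver, where 5 of 6 arrays were well above background, and differed by 4.73 ± 0.48 (SE). Their limma adjusted p-values were 6.2e-09, 8.7e-10 and 5.7e-09, and in none of the 3 did the groups overlap. The dimmer LTB probe, O11711, gave 2.41 ± 0.30 (SE), 5.31-fold, with a limma adjusted p of 1.5e-07.

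TNFSF13B, not called between the intestinal sections, stood at -0.91 to -0.04 in Spleen and -3.39 to -1.94 in Liver. Spleen minus Liver was 2.39 ± 0.22 (SE), 5.24-fold, with a limma adjusted p of 1.5e-09. CCL21 stood at 2.56 to 4.11 in Spleen and -0.37 to 1.69 in Liver and differed by 2.38 ± 0.36 (SE), with a limma adjusted p of 2.9e-06. Neither gene's groups overlapped. Within slides 1, 2 and 3 Spleen minus Liver was 8.21, 7.71 and 6.60 for CXCL13, 2.25, 2.76 and 2.17 for TNFSF13B and 1.68, 3.36 and 2.09 for CCL21.

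CCL19 stood at 2.09 to 3.68 in Spleen and 1.17 to 3.15 in Liver, where animal 75 was the high array. The log2 difference was 1.10 ± 0.51 (SE) with a limma adjusted p of 0.06, and 5 of 6 animals were higher in Spleen. Without animal 75 it was 1.54 with a limma adjusted p of 0.022, and the 12 arrays of Spleen and Liver alone gave an adjusted p of 0.013, or 0.018 with slide as a fixed block. Over all 24 arrays with slide as a random block it was 0.057. Leaving out the Peyer array of animal 71, which enters the shared estimate of spread, gave 1.10 ± 0.32 (SE). The limma adjusted p was then 0.0044, past the threshold. The second CCL19 probe, A_72_P198737, gave 1.28 ± 0.20 (SE) and a limma adjusted p of 4.7e-06, which was called.

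LTA split by probe here too. The brightest stood at -2.25 to -1.24 in Spleen and -1.76 to -1.25 in Liver, a difference of -0.34 ± 0.14 (SE) with a limma adjusted p of 0.039, under 2-fold. The other probe, A_72_P088251, stood at -0.74 to 0.01 in Spleen and was not well above background on any liver array. An approximate lower limit put Spleen 24.0-fold higher. Its fitted means were -0.38 in Spleen and -6.46 in Liver, with a limma adjusted p of 2e-11. That lower limit is the mean over the spleen arrays against, for each liver array, the dimmest signal that was still well above background or the probe's own, whichever was higher. The liver signal set in this way averaged -4.97. The limit is approximate, since CCR7 at -4.38 in Liver of animal 73 was not well above background.

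Peyer against Spleen sets the mucosal against the systemic organ, across slide sets. CCL21 and CCR7 were lower in Peyer, 2 of the 7 genes with 0 higher, where 25.1% of all named genes were called, 10.5% higher and 14.6% lower. The median log2 difference of the 7 was 0.10, against -0.11 over all genes. CCL21 was lower by a log2 difference of -1.22 ± 0.36 (SE), with a limma adjusted p of 0.0057, in 6 of 6 animals; the call was lost with median centring (-0.96), with the authors' deposited values (-0.64) and without animal 68 (-0.96). CCR7 was lower by -1.13 ± 0.48 (SE), with a limma adjusted p of 0.048, but with animal as a replicate block its adjusted p was 0.061, and without the Peyer array of animal 71 the difference was -0.53 with an adjusted p of 0.11. In all, 13 of 17 alternatives ended that call. The same array moved 3 other values: without it CXCL13 was 1.47 higher in Peyer (adjusted p of 0.014) instead of 0.55 ± 0.76 (adjusted p of 0.56), and CCL19 was 1.79 higher (adjusted p of 0.00013) instead of 1.18 ± 0.51 (adjusted p of 0.053). LTB differed by 0.10 ± 0.45 (SE) with a limma adjusted p of 0.86, and by 0.67 with an adjusted p of 0.035 without that array, under 2-fold. Over all arrays LTB stood at 4.32 ± 1.40 in Peyer and 4.22 ± 0.34 in Spleen (SD, n = 6 each). For CCL19 the second probe, A_72_P198737, gave -0.20 ± 0.20 (SE) with a limma adjusted p of 0.4. It was higher in Peyer in 2 of 6 animals, so the 2 probes do not share a direction here. For CCR7 the dimmer probe, O9612, was well above background on 6 of 6 arrays in both tissues. It was called, at -1.51 ± 0.37 (SE) with a limma adjusted p of 0.0013. A spot with the sequence of the brighter CCR7 probe gave -1.09, not called. The CCL21 probe A_72_P165806 gave -1.98 ± 0.40 (SE) with a limma adjusted p of 0.00024, also called.

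Against Liver, Jejunum had 2 of the 7 genes higher and 0 lower, where 33.3% of named genes were called, 17.2% higher and 16% lower. They were CXCL13, higher by 2.44 ± 0.76 (SE) in 5 of 6 animals with a limma adjusted p of 0.0079, and TNFSF13B, higher by 1.55 ± 0.22 (SE) in 6 of 6 with a limma adjusted p of 2e-06. With the authors' deposited values these were 0.39 and 0.78, neither called. Peyer against Liver had 6 of 7 higher, where 40.2% of named genes were called, 19.1% higher and 21.1% lower, with CXCL13 at 8.05 ± 0.76 (SE), or 8.98 without the Peyer array of animal 71, and LTB at 5.08 ± 0.45 (SE). Spleen against Jejunum had 5 of 7 higher, where 30.6% were called, 15.2% higher and 15.3% lower, with CCR7 at 5.21 ± 0.48 (SE) and CXCL13 at 5.07 ± 0.76 (SE). These comparisons share their arrays with those above.

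The B cell zone signal was set against the T cell zone signal within each array, as the CXCL13 level minus the CCL21 or CCL19 level. The value on 1 array depends on the brightness of both probes, so only its difference between tissues was tested. That difference still depends on the probe chosen for each gene: the CCL19 probes gave 3.30 and 0.81 in Peyer minus Jejunum. CXCL13 minus CCL21 averaged 2.34 ± 1.80 in Peyer and -2.24 ± 1.52 in Jejunum (SD, n = 6 each), a difference of 4.58 in 6 of 6 animals, or 5.28 without the Peyer array of animal 71. It averaged 0.57 ± 0.50 in Spleen and -4.56 ± 1.01 in Liver, a difference of 5.13 in 6 of 6 animals. Both shifts were towards the B cell zone chemokine, and the 2-sided exact permutation tests gave p = 0.0043 and 0.0022 (0.0087 and 0.0065 adjusted over 6 tests), 0.0022 being the smallest p this design allows. Between the lymphoid organs the value was higher by 1.77 in Peyer than in Spleen, in 5 of 6 animals, with animal 71 in the opposite direction (exact permutation p = 0.039, adjusted 0.047). This call was lost in 7 of 13 alternatives, with the authors' deposited values (0.20, adjusted p of 0.86), without animal 68, 69, 70, 73 or 75, and with animals paired, while without the Peyer array of animal 71 the difference was 2.47.

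CXCL13 minus CCL19 averaged 0.43 ± 0.90 in Peyer and -1.88 ± 1.49 in Jejunum, higher by 2.31 in 5 of 6 animals (exact permutation p = 0.011, adjusted 0.016). It averaged 1.06 ± 0.54 in Spleen and -5.34 ± 0.33 in Liver, higher by 6.40 in 6 of 6 (exact permutation p = 0.0022, adjusted 0.0065). Peyer and Spleen differed by -0.64 (exact permutation p = 0.18, adjusted 0.18). Averaging the probes of each gene moved the Peyer minus Jejunum value from 2.31 to 4.08. With the same animal's sections paired in an exact sign-flip test, whose smallest p is 0.03125, the adjusted p-values of the 5 called differences were 0.062 to 0.075.

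**Figure D3:**
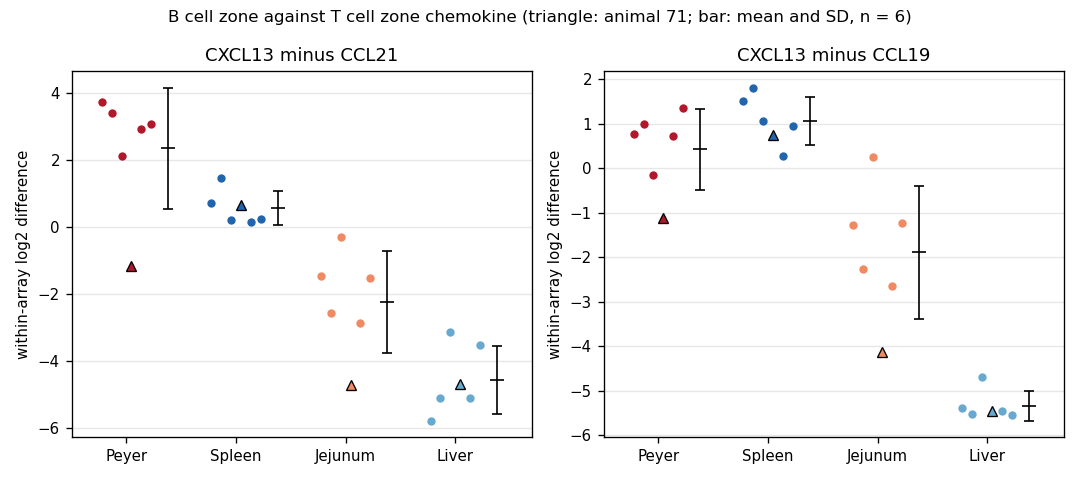
Within-array log2 difference (y) of CXCL13 minus CCL21 and of CXCL13 minus CCL19 by tissue (x). Points are arrays, triangles are animal 71, and bars give mean and SD over 6 arrays. The Peyer arrays other than animal 71 lie above all Spleen arrays for CCL21 and overlap them for CCL19.

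Genes around these members were read from lists drawn up with earlier results of these data known, so their counts are descriptions. Of all named genes, 5.96% were higher and 7.21% lower in Peyer than in Jejunum, and 20.8% higher and 18% lower in Spleen than in Liver. In Peyer against Jejunum the B cell markers had 7 of 10 measured genes higher and 0 lower, with MS4A1 at 7.10 ± 0.44 (SE) and CD79B at 5.79 ± 0.47 (SE), whereas 0 of 9 T cell markers were called in either direction, with CD8B at 0.93 ± 0.45 (SE). Of the 4 measured follicular dendritic cell markers, 1 of which is TNFSF13B, 3 were higher, among them CLU at 2.95 ± 0.35 (SE). All 6 smooth muscle markers were lower in Peyer, MYH11 by -2.32 ± 0.60 (SE), and 1 of 6 epithelium markers was lower. The part of these cell types in the members' differences was not tested.

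In Spleen against Liver 9 of 10 B cell markers and 8 of 9 T cell markers were higher, CD3E by 4.27 ± 0.32 (SE), and all 6 smooth muscle markers were higher. The mean level of the B cell markers was -1.03 to 1.45 in Peyer, 0.73 to 1.18 in Spleen, -2.57 to -2.19 in Jejunum and -2.71 to -2.30 in Liver. That of the T cell markers was 0.36 to 1.02 in Peyer, 0.61 to 1.73 in Spleen, -0.24 to 0.32 in Jejunum and -2.40 to -1.11 in Liver. Of the 4 follicular dendritic cell markers, 3 were higher in Spleen than in Liver and 1 was lower, CLU by -2.17 ± 0.35 (SE). CLU was highest in Liver, at a mean of 9.13, and it enters the mean level of that list there.

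**Figure D4:**
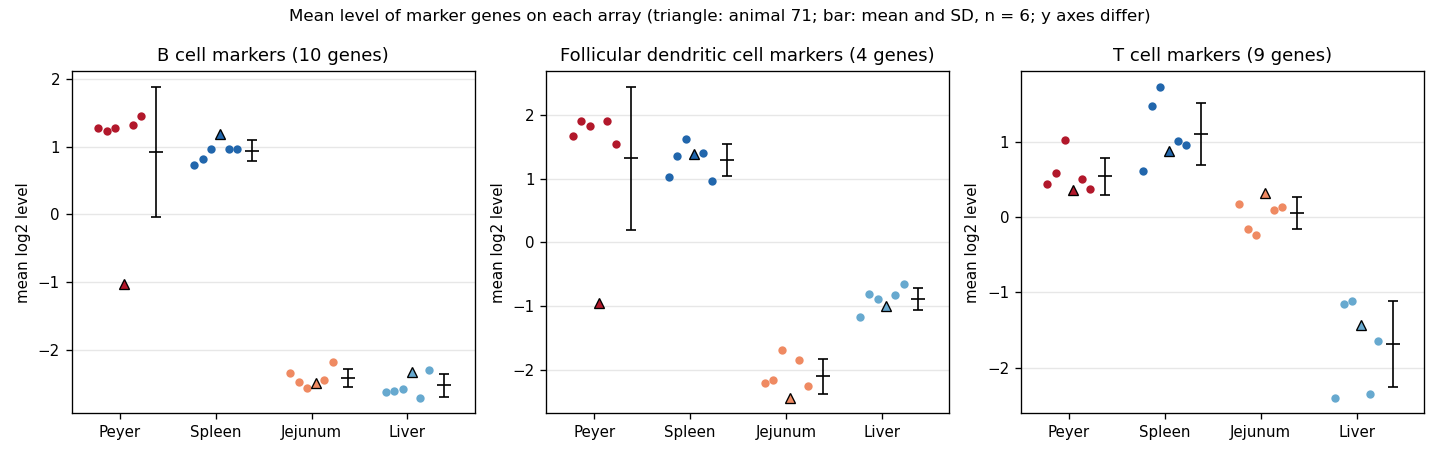
Mean log2 level (y) of B cell, follicular dendritic cell and T cell markers by tissue (x). Points are arrays, triangles are animal 71, and bars give mean and SD over 6 arrays. The Peyer array of animal 71 is low for the first 2 lists, at -1.03 and -0.95, and at 0.36 for T cell markers, next to the lowest of the other 5 at 0.37.

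Of the lymphotoxin pathway beyond the ligands, 12 of 17 listed genes were measured. In Peyer against Jejunum 1 was higher, close to the 5.96% of all named genes called higher. It was NFKB2, which encodes the precursor cleaved in the alternative NF-kappaB pathway, by 1.50 ± 0.22 (SE) with a limma adjusted p of 3.3e-05. The other 11 were not called in either direction. Next in size were TNFRSF11A at -0.97 ± 0.45 (SE) and BIRC3 at -0.94 ± 0.46 (SE). The median log2 difference of the 12 was 0.26. In Spleen against Liver, where 20.8% of named genes were higher, 6 were higher and 0 lower, among them TRAF3, an adaptor that restrains that pathway, by 2.74 ± 0.19 (SE) and NFKB2 by 2.25 ± 0.22 (SE). Of the BAFF and APRIL system, TNFSF13, which encodes APRIL, was the 1 measured gene of 4, and was higher in Spleen than in Liver by 1.34 ± 0.19 (SE).

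Adhesion molecules that lymphotoxin signalling induces on stroma and vessels were called in both comparisons. Their counts, and those of the next list, stand against 5.96% of named genes higher and 7.21% lower in Peyer than in Jejunum, and 20.8% higher and 18% lower in Spleen than in Liver. Of 10 measured inducer and organiser genes, 3 were higher in Peyer than in Jejunum: ICAM1 by 1.93 ± 0.28 (SE), VCAM1 by 1.87 ± 0.34 (SE) and MADCAM1, the mucosal homing address, by 1.23 ± 0.24 (SE). In Spleen against Liver 5 were higher and 2 lower, with VCAM1 higher by 4.03 ± 0.34 (SE) and MADCAM1 by 3.38 ± 0.24 (SE). MADCAM1 was not particular to the mucosal site: Peyer minus Spleen was -2.05 ± 0.24 (SE), across slide sets. Of 6 high endothelial venule genes, 3 were higher and 1 lower in each comparison. In Peyer CHST2 was higher by 2.10 ± 0.25 (SE) and CHST4 lower by -1.94 ± 0.37 (SE), both sulfotransferases of vessel addressins.

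Of 20 other lymphoid chemokines and guidance receptors, 4 were higher and 1 lower in Peyer than in Jejunum, CXCR4 by 3.28 ± 0.34 (SE). Of all named genes, 5.96% were higher and 7.21% lower there. In Spleen against Liver 11 of the 20 were higher and 2 lower, where 20.8% of named genes were higher and 18% lower. CXCR4 was higher in Spleen by 4.15 ± 0.34 (SE) and ACKR1 by 4.00 ± 0.30 (SE). CCR6 was well above background on 5 of 6 Peyer arrays and 1 of 6 Jejunum arrays, and on 6 of 6 Spleen arrays and 0 of 6 Liver arrays.

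The genes most like 6 of the members over the 24 arrays, by Pearson's r among 10874 named genes, are given as a description, since the arrays share tissues and animals. CXCL13 was nearest to CXCR4 (0.977), LTB to CD79A (0.978), the signalling chain of the B cell receptor, and CCR7 to POU2F2 (0.984). CCL19 was nearest to MFGE8 (0.929) and CCL21 to GUCY1B3 (0.904). LTA by its brightest probe was nearest to HRC (0.807), the lowest r of these 6.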

How the data were processed

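The 24 samples, 4 tissues of 6 pigs, were each hybridised to a one-colour Agilent array after labelling with Cy3, per the labels. The deposited scanner files hold signal as intensity, background-subtracted by Agilent Feature Extraction 10.10.1.1, per the file headers, with no normalization across arrays. In the table the authors deposited, 44600 probes have log2 values; its sorted columns are identical, with a median of 8.24. Limma is named in the submitters' processing notes, and its version and the centring are not given in the sources used here. Differences in that table followed the scanner values between tissues on shared slides (r = 0.956 and 0.962) more closely than across slide sets (0.322 to 0.706), so the scanner files were used and the table served as an alternative.

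Here log2 of the processed signal minus each array's 75th percentile was taken. Probes were kept if 1 or more tissues had all 6 arrays called well above background and if no array gave an outlier call, 42650 of 60305 probes, and 0 probes were saturated. Limma 3.58.1 in R 4.3.3 was fitted on all 24 arrays with tissue alone, and p-values were adjusted over all kept probes. Pairs of chemokines were compared with exact permutation tests in scipy 1.17.1. The design held 9 such tests, 3 of which needed CXCR5 and could not be run. Alternatives changed the normalization, filter, probe, blocks, weights and animals. The scripts were tested on simulated data.

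The members, gene lists and tests were chosen with earlier results of these data known. Genes named are the members, the 3 most like each (of which the nearest is printed), and up to 3 of each list with the largest difference; a few of these are not reported here. Replicate numbers are animal numbers in the labels, so they pair samples: deviations of the same animal's arrays correlated at a mean of 0.17 (36 pairs, 26 over 0.1), against -0.034 between animals (180 pairs).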

Additional observations from a re-analysis of the deposited data

Results flagged for a closer look

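Of 32 groups of 6 arrays (7 genes and the other LTA probe in 4 tissues), 9 held an array whose gap to its nearest neighbour was too large a share of the group's range by Dixon's test at its 95% limit; chance flags about 1 in 20 groups. The Peyer array of animal 71 accounted for 5 of them, which share that array: CXCL13 at -0.06 against 5.10 to 5.69 on the other 5, LTB at 1.47 against 4.77 to 5.11, CCL19 at 1.07 against 4.16 to 5.55, CCR7 at -2.54 against 0.66 to 1.74, and the other LTA probe at -2.91 against 0.43 to 1.12. The other 4 were in Liver. CCL19 stood at 3.15 in animal 75 against 1.17 to 1.86, and CXCL13 at -2.39 in the same animal against -4.08 to -3.51. CCL21 stood at -0.37 in animal 70 against 1.11 to 1.69, and CCR7 at -4.38 in animal 73 against -3.13 to -2.58.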

How the results depend on the processing

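The number of members called in Peyer against Jejunum (4 to 6), Spleen against Liver (4 to 6), Peyer against Liver (5 to 7) and Spleen against Jejunum (4 to 6) stayed within 1.5 times the value reported in every alternative run. In Peyer against Spleen the 2 calls became 1, CCL21, with no filter, animal as a replicate block, slide as a random block or the 12 arrays alone. With median centring both were lost and CCL19 was called instead (1.45, higher in Peyer), 1 call in all. The count was 0 with the authors' values, and 0 to 3 without 1 animal. In Jejunum against Liver they became 0 with the authors' values. LTA reversed to higher in Spleen (2.87) and in Peyer (3.19) than in Liver with the mean over its probes, and its other probe, chosen after seeing the data, was fitted at 6.07 in Spleen, 6.56 in Peyer and 1.88 in Jejunum against Liver. These are not measured sizes, since that probe was not well above background on any liver array. The approximate lower limits are 24.0-fold, 33.7-fold and 1.31-fold higher. The last rests on a Jejunum mean of -4.58, near the liver limit of -4.97. For CXCL13 minus CCL21, Peyer minus Spleen was 0.20 with the authors' values and 1.52 to 2.49 without 1 animal; for CXCL13 minus CCL19 it was -1.65 with the authors' values, then past the threshold. CXCL13 minus CCL19, Peyer minus Jejunum, was 2.10 to 2.85 without 1 animal, and lost its call without animal 69 or 73. Paired within animals (replicate block), 4.58, 5.13, 1.77, 2.31 and 6.40 kept their values and lost their calls; the smallest p of 64 sign patterns is 0.03125. Within slide 5 the first was 2.98, and within slide 1 Spleen minus Liver was 6.53 and 7.12. The causes of the other changes were not tested. Apart from these and CCR7 in Peyer against Spleen, the replicate block changed no call. Of 813 member values under alternatives, 756 kept direction and call. In Liver the other LTA probe has only an approximate bound.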

Other observations

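Spots of identical sequence under different names gave a measure of technical spread within an array. Over the 24 arrays the paired spots differed with an SD of 0.06 (log2) for CCL19, 0.14 for CCL21, 0.22 for CCR7 and 0.65 for the other LTA probe, with correlations of 0.999, 0.995, 0.996 and 0.978. The other LTA probe was not well above background on any liver array. Different probes of 1 gene agreed less for CCL19 (0.649) and CCR7 (0.815) than for LTB (0.961), TNFSF13B (0.972) and CXCL13 (0.999, where the pair shares a run of 37 bases).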
